A study of Sus scrofa with 4 samples.

Results

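The primary pancreas libraries of this series held 2130 barcodes rich in insulin transcripts, a pattern of pancreatic beta cells. They were chosen by the following rule: at least 3000 UMIs, at most 9000 detected features, INS making up at least 20% of the UMIs, and SLC4A4, a bicarbonate transporter of ductal cells, under 0.3%. They made up 2130 of the 10098 primary pancreas barcodes within the depth limits, of 26419 such barcodes in the whole series and of 32580 barcodes deposited. Primary pancreas 2 gave 2086 of them, 43.2% of its 4825 barcodes within the limits (exact binomial 95% interval 41.8 to 44.6%), and primary pancreas 1 gave 44, 0.834% of 5273 (0.607 to 1.12%). The pattern was weaker in 262 shallow barcodes of primary pancreas 2, described below, which had a median INS share of 23.4% and lower endocrine genes. They stay in the sums and gene counts of INS-rich barcodes. The INS gene lies on chromosome 2, from 1496842 to 1498052, in the RefSeq annotation of the pig assembly Sscrofa11.1.

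Both primary libraries were 10x single-cell RNA libraries from adolescent German Landrace pigs, weaned but not yet reproductively mature, a stage the methods call late postnatal. The other 2 libraries of the series were porcine pancreatic ductal organoids (PPDOs), ductal cells grown in culture. According to the methods, the pigs were 1 wild-type animal and 1 INS-eGFP animal, which carries eGFP under the porcine insulin promoter, and they were processed on different days. Both pancreata were digested with collagenase V and TrypLE, and dead cells were removed with 7-AAD. For the first sample, pieces of duct were picked by hand and live cells sorted. The second sample, from the INS-eGFP pig, pooled cells that bound the ductal lectin DBA, eGFP-positive cells and cells of the whole suspension, all sorted. The share of INS-rich barcodes therefore depends on the dissection of the first sample and the sort of the second, and is not the beta-cell content of either gland. The replicate numbers of the deposited libraries were read as the sample numbers of the methods. With 1 animal for each library, no test between conditions was possible, and the intervals given here cover counting error only.

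Beta cells are the endocrine cells of the islets that take up glucose through a transporter, phosphorylate it and couple the resulting rise in ATP to closure of a potassium channel, calcium entry and release of insulin granules. Insulin is made as a precursor, enters the endoplasmic reticulum (ER), and is cut and trimmed inside granules by the prohormone convertases PCSK1 and PCSK2 and by carboxypeptidase E (CPE). A set of transcription factors, among them PDX1, NKX6-1 and MAFA, keeps this identity, and a group of housekeeping genes such as LDHA and HK1 is known to be kept low in these cells.

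Some features of the libraries bear on every value that follows. The feature of the reference that holds the eGFP reporter had 10361 UMIs in primary pancreas 2 and 164 UMIs in primary pancreas 1, where 114 of them lay in the 44 INS-rich barcodes. That feature is named for the eGFP cassette of an mTmG construct, and is called the reporter here. A separate eGFP feature on the plus strand had 0 UMIs in every library. The labels do not give a genotype for either library, and the methods name 1 wild-type pig. Barcodes with little INS (under 5%) served for comparison: those with SLC4A4 at 0.3% or more (SLC4A4-rich, ductal gene), and, below that limit, those with at least 3 UMIs of the leukocyte gene PTPRC (PTPRC-positive) or 5 of the endothelial gene FLT1 (FLT1-positive). INS UMIs outside its own cells differed too: INS made up 1.01% of the UMIs of PTPRC-positive barcodes and 0.717% of those of SLC4A4-rich barcodes in primary pancreas 2, against 0.0155% and 0.00984% in primary pancreas 1. The primary libraries shared 10 barcode sequences, and 4 INS-rich barcodes were among them. In the PPDO libraries no barcode met the rule, and INS reached 0.180 and 0.174 CPM (counts for each 1000000 UMIs), with at most 0.00815% and 0.0165% of the UMIs of any barcode.

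INS made up a median of 54.3% of the UMIs of an INS-rich barcode in primary pancreas 2, with quartiles of 44.0 and 61.3% and a highest value of 80.2%. The median was 50.9% in primary pancreas 1, with quartiles of 41.0 and 56.5% and a highest value of 70.3%. The selected barcodes accounted for 89.1% of the INS UMIs counted in primary pancreas 2, and for 92.9% in primary pancreas 1. The rule cut the libraries differently. Primary pancreas 1 had its lowest selected barcode at 23% INS and the next barcode below at 9.63%, so no barcode lay near the limit, whereas primary pancreas 2 ran without a gap from 20.01% inside to 19.89% outside. A further 50 barcodes of primary pancreas 2 had at least 20% INS but too much SLC4A4 to be counted.

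**Figure D1:**
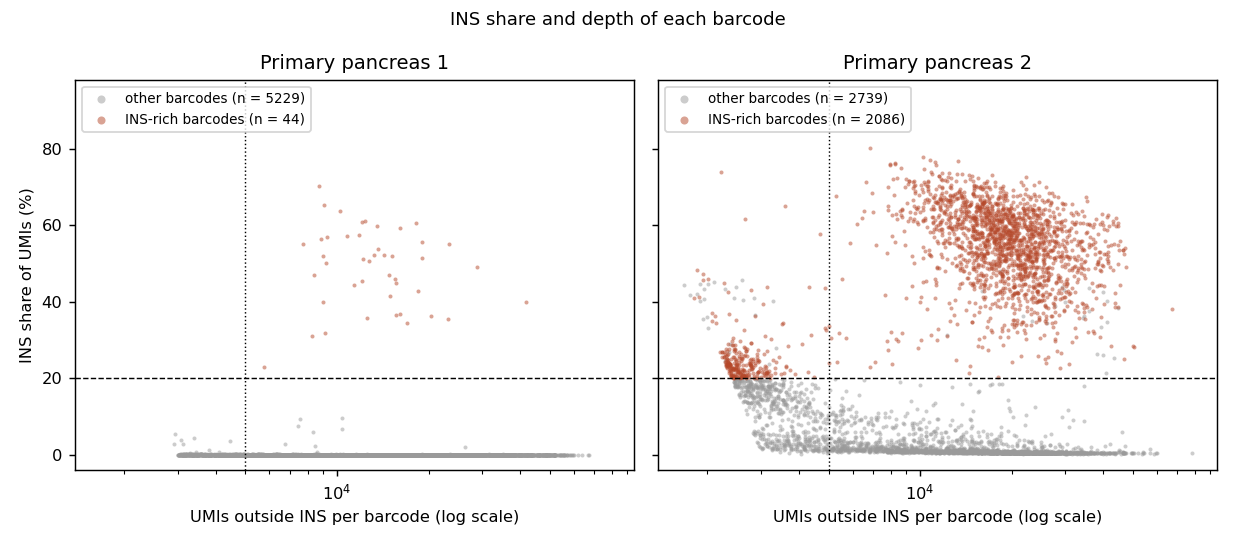
Each point is 1 barcode within the depth limits: the x axis is its number of UMIs outside INS (log scale), the y axis the INS share of its UMIs in percent, and the panels are the primary libraries. The dashed line is the 20% limit and the dotted line marks 5000 UMIs outside INS. In primary pancreas 2, 1824 INS-rich barcodes lie to the right of the dotted line and 262 form the upper end of a band of shallow barcodes to its left, whereas all 44 of primary pancreas 1 lie to the right.

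The plot of INS share against depth shows that the INS-rich barcodes of primary pancreas 2 lay mostly in 2 ranges of depth. Those with at least 5000 UMIs outside INS, called deep here, numbered 1824 and had a median of 19169 UMIs outside INS, an INS share of 56.1% and mitochondrial genes at 0.410% of the UMIs outside INS. The 262 shallow ones had a median of 2570 UMIs outside INS, an INS share of 23.4% and mitochondrial genes at 2.40%. Endocrine genes were lower in the shallow sum: the granin CHGA was at 3451 CPM against 14429 CPM in the deep sum, and the transcription factor MAFA at 5.66 against 43.5 CPM. Genes of other cell types were higher there, with the ductal SLC4A4 at 1888 against 94 CPM and the acinar protease CPA1 at 705 against 85.6 CPM. The split was set after the values were seen. These CPM values, and all that follow, leave INS out of the total.

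The marker genes of the selection other than INS are SCG5, SCG2, CHGA, SCGN, PPP1R1A, PCSK1 and G6PC2. They came with the selection, so they are described here and are no check of the beta-cell label. Not all of them set INS-rich barcodes apart from the 9 glucagon-rich (GCG-rich, defined below) ones of primary pancreas 1. SCG5 was at 1790 CPM in those against 1686 CPM in INS-rich barcodes, whereas SCG2 was at 69.9 CPM and PCSK1 had 0 UMIs in them. In primary pancreas 2, SCG2, a granin, summed to 2762 CPM in INS-rich barcodes and 106.6 CPM in all other barcodes within the limits, and in primary pancreas 1 to 2200 against 1.37 CPM. G6PC2, a glucose-6-phosphatase of the islet, was at 259 against 14.8 CPM and 301 against 0.209 CPM. PPP1R1A, a phosphatase inhibitor, was at 480 against 20.9 CPM and 461 against 5.28 CPM. All 7 were at least 4-fold higher in INS-rich barcodes of each library, on a scale of CPM + 5, as were 342 of 13252 genes in primary pancreas 2 (2.58%) and 763 of 13659 in primary pancreas 1 (5.59%). Lower calls of the same size numbered 845 (6.38%) and 1199 (8.78%). Since the barcodes were selected on INS and the markers came with the selection, these ratios describe the group and test nothing. With INS kept in the totals, 40 genes passed as higher and 1328 as lower in primary pancreas 2, because the median ratio of all genes then moved from 0.06 to -0.82 on the log2 scale. With the 1824 deep barcodes alone, 360 genes were higher (2.71%) and 856 lower (6.45%).

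The lists of primary pancreas 2 and primary pancreas 1 overlapped unevenly because the list of primary pancreas 1 was longer. Of the genes called higher, 306 were in both, a share of 89.5% of the shorter list (primary pancreas 2) and 40.1% of the longer. Of the genes called lower, 729 were in both, which is 86.3% and 60.8%. Among the 338 higher genes of primary pancreas 2 that could be compared in primary pancreas 1, 0 had the opposite sign, and among 844 lower genes 1 did. The ratios were larger in primary pancreas 1, where the other barcodes held INS at 0.0196% of their UMIs against 3.02% in primary pancreas 2. Those of primary pancreas 2 included 50 INS-rich barcodes left out for their SLC4A4, and reached 58.8% INS in a barcode, against 9.63% in primary pancreas 1. Against other barcodes with INS under 5%, 470 genes were higher in primary pancreas 2. The parts of such barcodes and of INS outside its own cells in the difference between libraries were not tested.

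The 15 genes with the largest ratios in primary pancreas 2 were led by SCG2 and CHGA. After them came ESM1, a secreted proteoglycan, at 1086 against 51.0 CPM, and TTR, the thyroxine carrier transthyretin, at 17554 against 899 CPM. GPX3, a secreted glutathione peroxidase, was at 699 against 31.9 CPM, ahead of PPP1R1A, and NMU, the peptide neuromedin U, at 213 against 7.33 CPM. PCSK1, SCG5, CPE and G6PC2 were also among them, with AARD, FXYD3, SLC35D3 and C15orf48. In primary pancreas 1 ESM1, TTR and GPX3 stood at 1035, 13278 and 561 CPM and NMU at 52.5 CPM.

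The 10 genes with the lowest ratios were SLC4A4, PKHD1, CFD, HBB, SPON1, SCTR, KIT, SOX6, CFTR and FBXL7. SLC4A4, which the rule used, was at 127 CPM against 16986 CPM, and other ductal genes are not independent of that rule. PKHD1, a protein of the ductal cilium, was at 11.3 against 1686 CPM, the secretin receptor SCTR at 5.06 against 635 CPM, and the chloride channel CFTR at 4.85 against 524 CPM. HBB, a haemoglobin chain, was at 4.48 against 680 CPM, and CFD, a complement protease, at 15.5 against 1507 CPM. KIT, a receptor tyrosine kinase, was at 15.7 against 1301 CPM, SOX6, a transcription factor, at 8.36 against 757 CPM, SPON1 at 8.49 against 899 CPM and FBXL7 at 6.54 against 610 CPM. These 10 genes lay between 1.59 and 42.9 CPM in the INS-rich barcodes of primary pancreas 1.

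**Figure D2:**
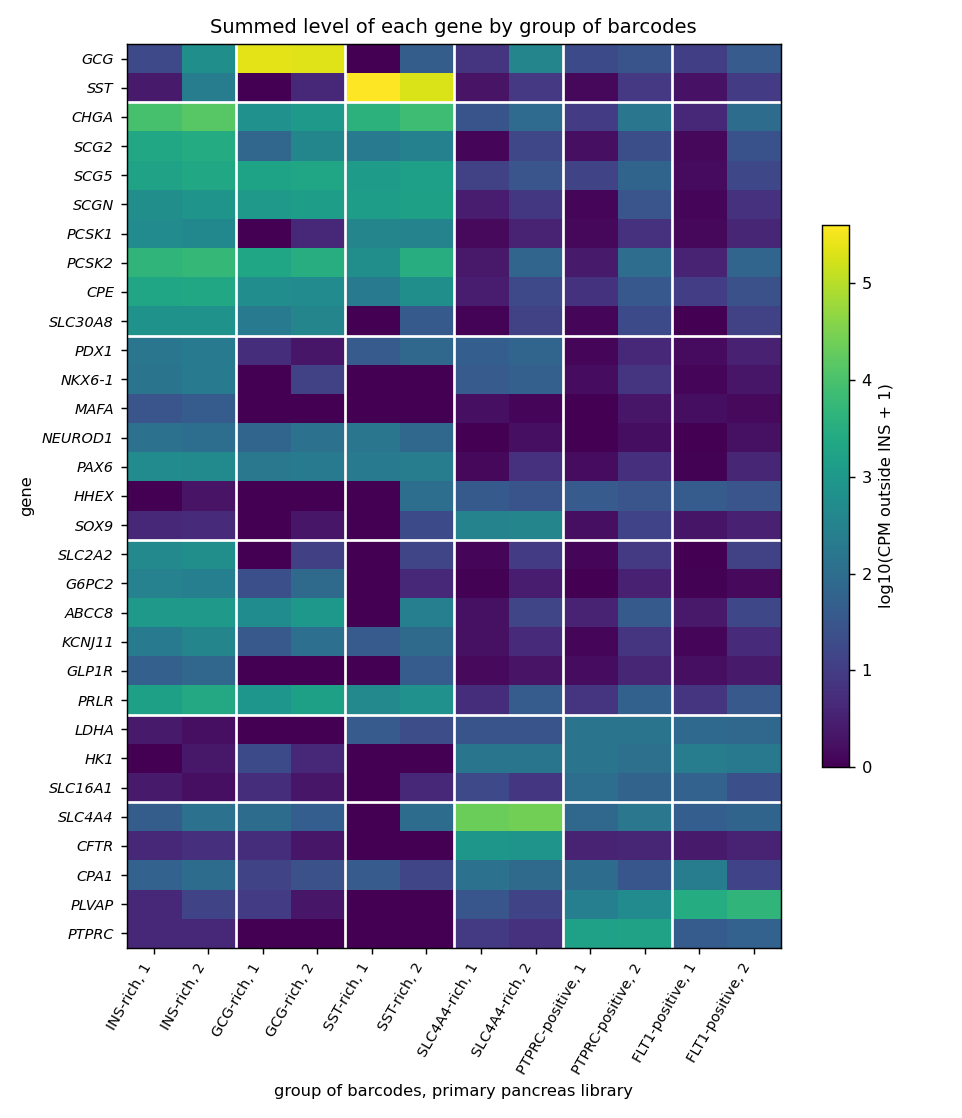
Summed level of 31 genes (rows) in 6 groups of barcodes, each shown for primary pancreas 1 and then 2 (columns), as log10 of CPM outside INS + 1. CHGA, SCG5 and PCSK2 are among the brighter genes of the INS-rich columns, and SCG5 and PCSK2 also of the GCG-rich column of primary pancreas 1. MAFA, GLP1R, HHEX and SOX9 lie low on the scale in the INS-rich columns. PCSK1 and SLC2A2 are dark in the GCG-rich columns, and LDHA, HK1, CFTR and PTPRC are dark in the INS-rich ones.

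Genes of the secretory granule and of prohormone processing were higher in INS-rich barcodes throughout. The list includes SCG5, SCG2, CHGA, SCGN and PCSK1, markers of the selection already given above, so its counts and medians are not separate from those. Of 16 measured members, 14 were at least 4-fold higher in primary pancreas 2 and 15 in primary pancreas 1, beside 2.58 and 5.59% of all genes, and none was 4-fold lower. The median log2 ratio was 3.30 in primary pancreas 2 and 5.62 in primary pancreas 1, against 0.06 and 0.01 over all genes compared. The convertase PCSK2 was at 5370 CPM in INS-rich barcodes of primary pancreas 2 and 4705 CPM in primary pancreas 1. CPE was at 2291 and 1934 CPM, and SLC30A8, which carries zinc into the granule, at 742 and 767 CPM. ERO1B, an oxidase of the islet ER, was at 608 and 569 CPM. The member with the smallest ratio was PAM, the amidating enzyme, which was at 545 CPM against 365 CPM in other barcodes, where endothelial FLT1-positive barcodes had 663 CPM.

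Transcription factors of beta identity differed less than granule genes by their list median. Of 17 measured factors, 15 were above equality and 8 at least 4-fold higher in primary pancreas 2, and none was 4-fold lower, with a median log2 ratio of 1.92. Primary pancreas 1 had 11 of 17 at least 4-fold higher, with a median of 2.35. Over all genes of primary pancreas 2, 53.5% were above equality and 2.58% at least 4-fold higher, and 5.59% were 4-fold higher in primary pancreas 1. PDX1 and NKX6-1 stood at 189 and 192 CPM in primary pancreas 2 and at 154 and 140 CPM in primary pancreas 1. Both were also present in SLC4A4-rich barcodes, PDX1 at 66.9 CPM and NKX6-1 at 52.2 CPM in primary pancreas 2, and neither ratio reached 4-fold in that library. NEUROD1 was at 103 and 126 CPM, PAX6 at 456 and 511 CPM, and RFX6 at 424 and 480 CPM. GLIS3, a factor of both duct and beta cells, was lower than in other barcodes, at 646 against 1359 CPM in primary pancreas 2 and 671 against 921 CPM in primary pancreas 1.

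MAFA, the factor of mature beta cells, was at 42.8 CPM in INS-rich barcodes of primary pancreas 2 and 28.6 CPM in primary pancreas 1, against 1.47 and 0.562 CPM in other barcodes. After every barcode was thinned to 5000 UMIs outside INS, 18.4% of 1824 INS-rich barcodes of primary pancreas 2 had a MAFA UMI (16.6 to 20.2%), against 0 of 114 PTPRC-positive barcodes, which allows up to 3.18% by the exact interval. The thinned barcodes had median depths of 19169 and 11668 UMIs outside INS before thinning. Without thinning and with the shallow barcodes included, the shares were 45.3% of 2086 and 1.40% of 143. Among deep barcodes, 883 of 1824 had no MAFA UMI. Factors of other fates were low: IRX2 of alpha cells was at 2.11 CPM and HHEX of delta cells at 1.002 CPM in primary pancreas 2, and both had 0 UMIs in the 44 barcodes of primary pancreas 1. SOX9, a ductal and progenitor factor, was at 3.75 and 3.18 CPM against 354 and 318 CPM in SLC4A4-rich barcodes.

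The genes of glucose sensing and excitation, a list that includes the selection marker G6PC2, were present in both libraries. Of 17 measured members, 8 were at least 4-fold higher in primary pancreas 2 and 15 in primary pancreas 1, with medians of 1.97 and 3.18 on the log2 scale, beside shares of 2.58 and 5.59% and medians of 0.06 and 0.01 over all genes. SLC2A2, the glucose transporter GLUT2, was at 593 CPM in primary pancreas 2 and 439 CPM in primary pancreas 1, against 90.1 and 1.09 CPM in other barcodes. After thinning it was found in 87.5% of INS-rich barcodes of primary pancreas 2, against 3.51% of PTPRC-positive ones. The potassium channel subunits ABCC8 and KCNJ11 were at 1034 and 351 CPM in primary pancreas 2 and at 1086 and 218 CPM in primary pancreas 1. Of the calcium channels, CACNA1A was at 642 and 571 CPM and CACNA1D at 752 and 1101 CPM.

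Receptors and release machinery followed with smaller ratios. Of 10 measured receptors in primary pancreas 2, 4 were at least 4-fold higher, and of 11 in primary pancreas 1, 6 were, where 2.58 and 5.59% of all genes were. PRLR, the prolactin receptor, was at 2393 and 1548 CPM, and GLP1R, the receptor of the incretin GLP-1, at 70.6 and 50.9 CPM. GLP1R was found in 32.0% of the thinned INS-rich barcodes of primary pancreas 2, against 1.75% of PTPRC-positive ones. The insulin receptor INSR went the other way, at 54.8 against 117 CPM and 81.1 against 96.1 CPM. Among 17 measured genes of exocytosis, 7 were at least 4-fold higher in primary pancreas 2, and 9 of 16 in primary pancreas 1, beside the same shares over all genes. SNAP25, a core fusion protein, was at 603 and 600 CPM, and the scaffold RIMS2 at 1816 and 1960 CPM.

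Genes of ER translocation and folding differed less, though nearly all in 1 direction. Of 27 measured members, 1 was 4-fold higher in primary pancreas 2, namely HYOU1, a chaperone, at 114 against 19.1 CPM, and none in primary pancreas 1, against 2.58 and 5.59% of all genes. The list median was 1.13 and 0.81 on the log2 scale. HSP90B1, the ER chaperone GRP94, was at 765 against 275 CPM in primary pancreas 2 and 487 against 300 CPM in primary pancreas 1. HSPA5, the chaperone BiP, was at 29.5 against 14.6 CPM and 92.3 against 25.2 CPM. In all, 26 of the 27 were above equality in primary pancreas 2 and 25 in primary pancreas 1, against 53.5 and 50.3% of all genes compared.

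**Figure D3:**
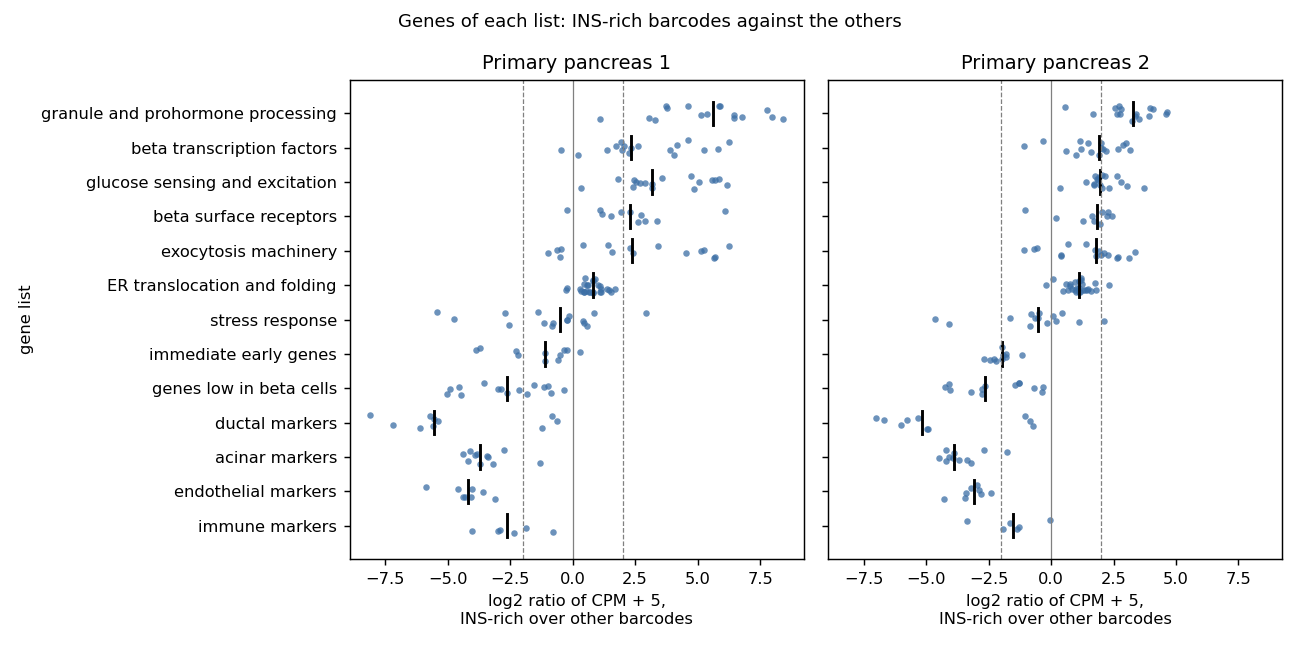
Each point is 1 gene of a list (rows): its log2 ratio of CPM + 5 in INS-rich over other barcodes is on the x axis, with a panel for each primary library. Black bars are list medians, the dashed lines mark 4-fold and the solid line equality. Among the lists drawn, granule genes have the highest medians, 3.30 in primary pancreas 2 and 5.62 in primary pancreas 1, and ductal markers the lowest, with medians of -5.15 and -5.55. The list of selection markers is not drawn, but its SCG5, SCG2, CHGA, SCGN and PCSK1 are also granule genes and its G6PC2 a glucose-sensing gene. The ductal list holds SLC4A4, which the rule used.

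The list of genes known to be kept low in beta cells was lower here than in the other barcodes. Of its measured members, 7 of 13 were at least 4-fold lower in primary pancreas 2 and 9 of 15 in primary pancreas 1, with none higher in either. LDHA, a lactate dehydrogenase, was at 0.739 CPM in primary pancreas 2 and 1.59 CPM in primary pancreas 1, against 31.2 and 47.1 CPM in other barcodes. HK1, a hexokinase of low Km, was at 1.29 CPM and 0 UMIs, against 115 and 143 CPM. SLC16A1, a lactate transporter, was at 0.686 and 1.59 CPM, against 8.97 and 36.0 CPM. No measured member lay above equality in either library. REST, a repressor of neuronal genes, was lower by less than 4-fold, at 54.8 against 72.5 CPM and 31.8 against 63.0 CPM. Low levels of some members were not particular to INS-rich barcodes. In the 9 GCG-rich barcodes of primary pancreas 1, LDHA had 0 UMIs, SLC16A1 had 1 UMI and REST was at 21.8 CPM. HK1, at 17.5 CPM, and CXCL12, at 760 CPM, stood above the INS-rich barcodes of that library. Of the stress genes, 1 of 14 was at least 4-fold higher and 2 lower in primary pancreas 2, and 1 of 16 higher and 4 lower in primary pancreas 1. Over all genes the shares higher and lower were 2.58 and 6.38% in primary pancreas 2 and 5.59 and 8.78% in primary pancreas 1, and in a list this short counts of 1 or 2 are near them. TXNIP, a thioredoxin inhibitor of that list, was at 24.0 against 717 CPM and 6.36 against 487 CPM.

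Of the immediate early genes, 4 of 10 were at least 4-fold lower in INS-rich than in other barcodes of primary pancreas 2, and 4 of 11 in primary pancreas 1, where 6.38 and 8.78% of all genes were. The levels of FOS, FOSB and EGR1, picked after their values were seen, were lower in primary pancreas 2 than in primary pancreas 1. FOS was at 45.5 CPM in INS-rich barcodes of primary pancreas 2 and 2771 CPM in those of primary pancreas 1, while other barcodes had 194 and 2280 CPM. FOSB was at 3.69 and 428 CPM in INS-rich barcodes and at 41.7 and 927 CPM in others. EGR1 was at 36.0 and 732 CPM, and at 153 and 940 CPM in others. DNAJB1, a heat shock co-chaperone, was at 111 and 822 CPM, against 49.1 and 102 CPM in other barcodes. The pigs, days, dissection and sorting all differed between the libraries, so these cannot be told apart as sources. IFI6, an interferon-induced gene, was at 117 CPM in INS-rich barcodes of primary pancreas 2 and 1826 CPM in those of primary pancreas 1, and at 75.1 and 383 CPM in other barcodes.

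Markers of other cell types were checked as whole lists, beside all genes, of which 6.38% were lower and 2.58% higher in primary pancreas 2, and 8.78 and 5.59% in primary pancreas 1. Of 10 ductal markers measured, 7 were at least 4-fold lower in each library, but SLC4A4 is 1 of these 7 and its low level was set by the rule. That limit also placed 50 INS-rich barcodes of primary pancreas 2 among the others, so the other ductal markers are not independent of it. The 3 that were not 4-fold lower, KRT8, KRT18 and ANXA4, stood at 301, 175 and 277 CPM in INS-rich barcodes of primary pancreas 2. Of 11 acinar markers 10 were lower in each library, and all 8 endothelial markers were. The leukocyte gene PTPRC was at 3.22 and 3.18 CPM against 1678 and 1594 CPM in PTPRC-positive barcodes. CD74, a chaperone of antigen presentation counted with the immune markers, stood at 1467 and 1233 CPM, against 1500 and 2109 CPM in other barcodes, and of 6 immune markers 1 and 4 were lower. Of 7 and 8 stellate markers 5 and 7 were lower, and of 1 and 4 Schwann cell markers 0 and 3. Alpha cell markers went both ways, with 2 of 6 higher in each library and 1 and 3 lower, as did delta cell markers, with 1 higher in each and 2 and 3 lower of 6 and 5. Counts of 1 in lists of this length say little beside those shares. Of 3 and 4 proliferation genes measured none passed 4-fold in either direction, and TOP2A was at 3.85 CPM and 0 UMIs.

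IAPP, the amylin gene, which beta cells of other species release with insulin, had 10 UMIs in all 2086 INS-rich barcodes of primary pancreas 2, or 0.264 CPM (exact Poisson interval 0.126 to 0.485), and 0 in those of primary pancreas 1 (up to 5.87 CPM). Other barcodes had 0.174 and 0.458 CPM. Whether the gene model covers the transcript end that this assay reads was not tested. CMAH, an enzyme of a sugar antigen relevant to transplants of pig tissue, was at 0.976 CPM in INS-rich barcodes of primary pancreas 2 and 0 UMIs in primary pancreas 1, against 110 and 141 CPM in FLT1-positive barcodes.

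Barcodes rich in glucagon (GCG at least 2% of the UMIs outside INS, INS under 20%) were compared as another endocrine group, with 26 in primary pancreas 2 and 9 in primary pancreas 1. Against them, 395 of 12261 genes were at least 4-fold higher in INS-rich barcodes of primary pancreas 2 (3.22%) and 170 lower (1.39%). The totals left out INS but kept GCG, which was at 212255 CPM in the GCG-rich barcodes, so the other genes of that group read lower than with GCG left out. ESM1 was at 1086 CPM against 3.49 CPM, PCSK1 at 413 against 3.49 CPM, and GRM5, a glutamate receptor, at 1318 against 25.6 CPM. NMU and PTN, a growth factor, were at 213 and 194 CPM against 0 UMIs in the GCG-rich barcodes. CADM2, an adhesion protein, was at 4905 against 115 CPM, and SLC2A2 at 593 against 10.5 CPM. Besides GCG, the genes higher in the GCG-rich barcodes were led by GPC6, FAP, TMEM132D and IRX2, the last at 348 against 2.11 CPM. TTR, at 17554 and 22057 CPM, NEUROD1, at 103 and 124 CPM, and SCGN, at 793 and 1326 CPM, were common to both groups. ESM1 and PCSK1 were at 1035 and 511 CPM in the INS-rich barcodes of primary pancreas 1 too, and PCSK1 had 0 UMIs in its 9 GCG-rich barcodes.

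The eGFP reporter was found more often in INS-rich than in other barcodes of both libraries. A reporter UMI was found in 1650 of 2086 INS-rich barcodes of primary pancreas 2, 79.1% (77.3 to 80.8%), at a mean of 4.46 UMIs. Among the 1824 deep barcodes the share was 89.3%, and among the 262 shallow ones 8.40%. In primary pancreas 1, 38 of 44 INS-rich barcodes had one, 86.4% (72.6 to 94.8%), at a mean of 2.59 UMIs. The shares were 3.04% of SLC4A4-rich and 0.699% of PTPRC-positive barcodes in primary pancreas 2, and 1.13% and 0 of 599 (up to 0.614%) in primary pancreas 1. Of the GCG-rich barcodes, 1 of 26 and 0 of 9 had a reporter UMI, and of the SST-rich ones in primary pancreas 2, 2 of 12. Barcodes of primary pancreas 2 that the rule left out had more: 25 of the 50 with high INS and SLC4A4, and 70 of the 81 with over 9000 features. Since INS-rich barcodes were also deeper, shares were taken after thinning to 3000 UMIs in all, which gave 24.1% in primary pancreas 2 and 20.5% in primary pancreas 1, against 0.590% of SLC4A4-rich and 0 of 143 PTPRC-positive barcodes (up to 2.55%) in primary pancreas 2. After thinning to 5000 UMIs outside INS the INS-rich share was 61.0% of 1824 and 47.7% of 44, against 0.952% of SLC4A4-rich barcodes in primary pancreas 2. Since eGFP was used to sort part of primary pancreas 2, its presence there is no independent measure.

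**Figure D4:**
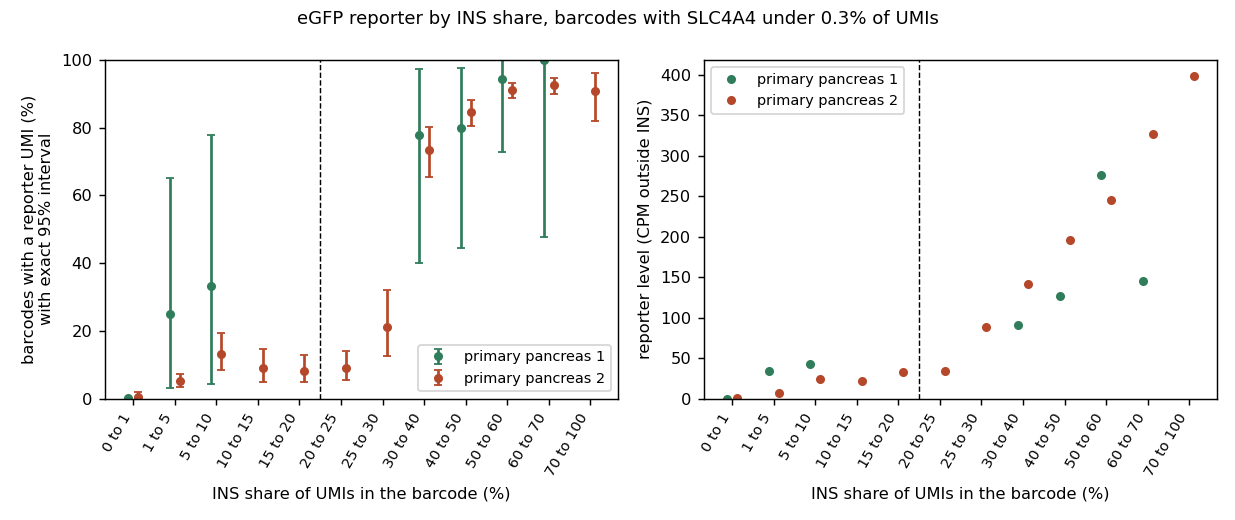
Reporter in barcodes with SLC4A4 under 0.3%, grouped by INS share of UMIs (x axis): the share of barcodes with a reporter UMI in percent, with exact 95% intervals (left), and the reporter level in CPM outside INS (right), for bins of at least 5 barcodes. In primary pancreas 2 the share goes from 9.09% at 20 to 25% INS to 92.4% at 60 to 70% INS, and the level from 34.8 to 327 CPM.

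The reporter level also differed among INS-rich barcodes. In bins of INS share of primary pancreas 2 it was at 34.8 CPM between 20 and 25% INS, 141 CPM between 30 and 40%, 246 CPM between 50 and 60%, and 399 CPM above 70%. In primary pancreas 1, with far fewer barcodes in each bin, the level rose less evenly. It was at 0 in 1 barcode between 20 and 25% INS, 91.4 CPM in 9 between 30 and 40%, 126 CPM in 10 between 40 and 50%, and 276 CPM in 18 between 50 and 60%. The 5 between 60 and 70% were at 145 CPM, from 9 reporter UMIs, and the 1 above 70% at 457 CPM, from 4 UMIs. In primary pancreas 2, barcodes just below the limit, at 15 to 20% INS, had 32.9 CPM and a reporter UMI in 8.17% of 208, close to the values of the barcodes just above it. Most of the INS-rich barcodes below 30% INS were shallow ones, with median depths of 2613 and 2646 UMIs outside INS in the lowest bins.

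To describe what moved with INS share, the deep barcodes of primary pancreas 2 were divided by INS share into 3 equal groups of 608. The group of highest share had a median INS share of 64.2% and the group of lowest share 44.8%, with medians of 16180 and 21710 UMIs outside INS and mitochondrial shares of 0.392 and 0.443%. Only 4 of 11959 genes were at least 2-fold higher in the high-share group (0.0334%) and 38 at least 2-fold lower (0.318%). Of the named genes, those at least 2-fold higher were NMU, at 287 against 134 CPM, and CALB1, a calcium-binding protein, at 167 against 78.9 CPM. WFDC2, MUC13, IFI6 and RPN2 came next but under 2-fold, with RPN2, a subunit of the ER enzyme that adds sugar chains, at 373 against 190 CPM. Of the lower genes, the hormones SST, at 16.8 against 569 CPM, and GCG, at 63.7 against 1509 CPM, came first, but 6 barcodes of the low-share group carried them. Without these, in which GCG or SST made up at least 2% of the UMIs outside INS, the low-share group was at 35.2 CPM for SST and 59.5 CPM for GCG, so that GCG was no longer lower and SST was under 2-fold. The acinar enzyme CPA1 followed, then TH, at 17.1 against 76.2 CPM, and the acinar genes CTRC, CPB1, SYCN and PRSS2.

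ER genes leaned the same way as a list. Of 27 measured, 26 were higher in the high-share group, against 49.3% of all genes, and the median was 0.51 on the log2 scale. SEC11C, a signal peptidase subunit, was at 288 against 161 CPM, SSR4 at 639 against 367 CPM and SEC61B, a subunit of the translocation channel, at 531 against 342 CPM, whereas HSPA5 was at 30.8 against 26.9 CPM. Granule genes were higher in 12 of 16, with SCG5 at 2831 against 1645 CPM and VGF at 69.5 against 35.0 CPM. The selection markers SCG5, SCG2, CHGA, SCGN and PCSK1 were among these 12. Glucose-sensing genes were higher in 6 of 17, and SLC2A2 was lower, at 502 against 672 CPM. All 10 acinar markers measured were lower in the high-share group, CPA1 at 37.9 against 174 CPM, as were all 4 endothelial markers measured, with a median of -0.82, and the part of either in the other differences was not tested.

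Some genes varied far more among the deep INS-rich barcodes than others of like level. Each barcode was thinned to 5000 UMIs outside INS, and the variance over the mean of a gene was divided by the median of the 100 genes nearest in mean. GCG led, with a ratio of 415, followed by SST (somatostatin) with 326, and then by acinar enzymes such as CPA1 with 48.1 and PRSS2 with 44.6. These rested on few barcodes: the 21 with the most held 80.9% of the thinned GCG UMIs, and the 21 with the most SST held 91.8% of those of SST. Metallothioneins (MT1A, MT1X), TTR, TH, IFI6 and SGCZ followed, and NRG1 and NMU came just below the first 15.

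Most of these hormone reads came from 6 barcodes, all in primary pancreas 2. In 3 of them GCG made up 10.9 to 14.95% of the UMIs outside INS, beside INS at 25.01 to 28.5% of all UMIs, and these had 62540 to 70245 UMIs. In another 3 SST made up 5.97 to 11.0%, beside INS at 30.8 to 41.1%, with 23404 to 64121 UMIs. The 3 with GCG had 46901 to 50298 UMIs outside INS, against a median of 19169 in deep barcodes, and 0, 2 and 22 reporter UMIs. Those with SST had 16184 to 37777 UMIs outside INS and 0 to 3 reporter UMIs. In primary pancreas 2, Scrublet scores of 156 of 4825 barcodes were over the limit the study used for doublets. Among these were 84 of the 1824 deep and 2 of the 262 shallow INS-rich barcodes. Of the 50 barcodes left out for their SLC4A4, 29 were over it. The part of such barcodes in the differences by INS share and in the variance ranking was not tested. Scores of the 6 with a second hormone were all under the limit. Those scores rest on a library with only 26 GCG-rich and 12 SST-rich barcodes, and whether the 6 were doublets was not tested further. Without them GCG in the deep barcodes went from 595 to 59.2 CPM and SST from 221 to 22.97 CPM. In other groups GCG was at 27.3 CPM in PTPRC-positive, 40.5 CPM in FLT1-positive and 355 CPM in SLC4A4-rich barcodes. SST was at 7.55 CPM in PTPRC-positive and 7.72 CPM in SLC4A4-rich barcodes. A GCG UMI was found in 22.97% of thinned INS-rich (21.1 to 24.97%), 14.9% of thinned PTPRC-positive (8.93 to 22.8%) and 14.6% of thinned SLC4A4-rich barcodes (12.6 to 16.8%).

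TH, the tyrosine hydroxylase of catecholamine synthesis, marked a small set of its own. In primary pancreas 2, 55 of 1824 deep INS-rich barcodes, 3.02% (2.28 to 3.91%), had at least 10 TH UMIs and held 88.4% of all TH UMIs of the group, whereas 1581 barcodes had none. In primary pancreas 1, 2 of 44 did, 4.55% (0.555 to 15.5%), with 97.1% of the TH UMIs, and the 5229 other barcodes of that library had none. The 55 barcodes had medians of 51.4% INS and 24382 UMIs outside INS, against 56.3% and 19006 UMIs in the remaining 1769. The limit of 10 UMIs was not thinned, so it is met more easily in deeper barcodes. Scrublet marked 1 of the 55. NMU was at 545 CPM in them against 203 CPM, SCG5 at 4219 against 2123 CPM, VGF at 124 against 49.4 CPM and DACH2, a transcription factor, at 73.1 against 17.97 CPM. PDX1 was at 217 against 191 CPM, NKX6-1 at 180 against 195 CPM and the reporter at 362 against 245 CPM. The set was picked after its values were seen, so these are descriptions.

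**Figure D5:**
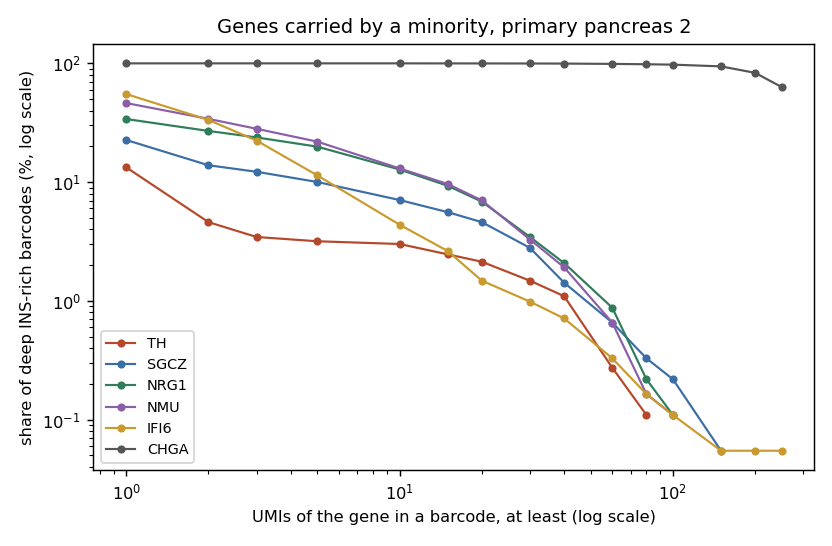
Share of the 1824 deep INS-rich barcodes of primary pancreas 2 (y axis, percent, log scale) with at least the number of UMIs on the x axis (log scale), for 6 genes. The TH curve is nearly flat from 3.45% of barcodes at 3 UMIs to 3.02% at 10, while CHGA reaches 97.5% at 100 UMIs.

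Other genes of this kind were spread over more barcodes. Their counts, like those of TH, were not thinned. Median UMIs outside INS were 19169 in deep barcodes of primary pancreas 2 and 13004 in those of primary pancreas 1, and the part of depth in the differences between libraries was not tested. NMU had no UMI in 979 of the 1824 deep barcodes of primary pancreas 2 and at least 10 in 238, which held 76.0% of its UMIs. Of the 44 in primary pancreas 1, 34 had none. NRG1, the growth factor neuregulin 1, had at least 10 UMIs in 12.8% of deep barcodes of primary pancreas 2 and in 2 of 44 in primary pancreas 1. SGCZ, a sarcoglycan, did so in 7.07% and in 7 of 44. IFI6 had at least 10 UMIs in 4.39% of the deep barcodes of primary pancreas 2 but in 34 of 44 in primary pancreas 1 (77.3%, 62.2 to 88.5%).

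Some abundant genes, picked after their values were seen, were found in nearly every deep barcode. The 5th and 95th percentiles over barcodes of primary pancreas 2 were 8288 and 22339 CPM for CHGA, 2980 and 8413 CPM for PCSK2 and 1201 and 5002 CPM for SCG2. ESM1 lay between 255 and 2164 CPM and was absent from 8 barcodes. SCG5 was wider, between 483 and 4679 CPM. SLC2A2 lay between 112 and 1320 CPM, with 29 barcodes at 0.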

How the data were processed

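Single-cell RNA was measured with 10x libraries from 2 primary pancreas samples and 2 PPDO samples. The deposited tables hold UMI counts per feature and barcode, which the authors made with Cell Ranger 7.1.0 (file headers). The submitters' processing notes name Sscrofa11.1 and the authors used an in-house pig annotation, in which many genes have a separate feature for the 3′ extension of their last exon. The study also removed free RNA with SoupX, which was not applied here. The 30290 gene identifiers came from 56060 features after each gene and its extension were summed. A symbol came from the feature table for 16699 of them and from a gene name table for 722, 12861 had none, and the 1331 whose symbol was shared were not named.

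Barcodes needed at least 3000 UMIs and at most 9000 features, and doublets were kept, with Scrublet (scanpy 1.11.5) as an alternative. Primary library totals were 87043513 and 138928395 UMIs, those of the PPDO libraries 366263520 and 316018482. Counts were summed over the barcodes of a group and given as CPM, with INS left out of the total. A gene was called at 4-fold on the scale of CPM + 5, among genes with at least 5 CPM in either sum, so ratios of low genes are understated. No test was run, since the barcodes were chosen by INS and nearly all come from 1 library. Shares carry exact Clopper-Pearson 95% intervals and sums exact Poisson ones, which cover counting error only. The barcodes, the gene lists and the markers were chosen with earlier results of these data known. Named genes are members of 22 lists (252 of 283 genes matched 1 gene), the 15 most higher and 10 most lower by ratio, 8 each way against GCG-rich barcodes and between groups of INS share, and the 15 of largest excess variance. The depth split, the TH group and the genes compared in it, and NRG1 were picked after their values were seen. The values of a few list members are not reported here. The scripts (numpy 2.4.6, pandas 2.3.3, scipy 1.17.1, matplotlib 3.10.9) were tested on simulated data. The limits on INS, SLC4A4, depth, mitochondrial share and doublets, the constant added, the filter, the extension features, INS in the totals and the group compared with were varied.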

Additional observations from a re-analysis of the deposited data

Results flagged for a closer look

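Some transgene reads lay outside the reporter feature of primary pancreas 2, and those of primary pancreas 1 also enter the reporter shares above. Primary pancreas 1, read here as the sample that did not come from the INS-eGFP pig, had 164 UMIs of the reporter feature, of which 114 were in its 44 INS-rich barcodes and 17 in 102 barcodes of over 9000 features. PPDO 1 had 16 UMIs of the same feature, spread over 15 of its barcodes, none of them INS-rich, while PPDO 2 had 0. A separate eGFP feature on the minus strand had 26 UMIs in primary pancreas 2 and none in the other libraries. Each is above 0 in data that the gene comparisons do not use, and the source of these reads was not tested.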

How the results depend on the processing

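No paired analysis was possible because INS-rich barcodes were chosen by their own reads and found in no PPDO library, so they were compared with other barcodes within each primary pancreas library as a description, with no test. In primary pancreas 2 the number of INS-rich barcodes lay between 1673 and 2586 under the other limits, and primary pancreas 1 gave 44. The 342 higher genes became 153 with INS at least 40%, 682 with 1 CPM added, 135 with 20 CPM added, 40 with INS kept in the totals, 911 against SLC4A4-rich barcodes, 1292 against PTPRC-positive barcodes and 763 in primary pancreas 1, and stayed between 299 and 470 otherwise. The 845 lower genes became 1444 with 1 CPM added, 333 with 20 CPM added and 1328 with INS kept, and stayed between 793 and 1241 otherwise. Higher genes were 28.8% of those called, and 16.2% with INS at least 40%, 53.4% against SLC4A4-rich barcodes, 51.0% against PTPRC-positive barcodes, 2.92% with INS kept and 38.9% in primary pancreas 1. The reporter share of 79.1% became 68.6% with INS at least 10%, 88.7% at 30%, 90.1% at 40%, 65.3% with a lower UMI limit, 88.6% from 5000 UMIs, 89.3% from 5000 UMIs outside INS (added after seeing the data), 24.1% after thinning to 3000 UMIs and 86.4% in primary pancreas 1. GCG and SST turned from lower to higher against SLC4A4-rich barcodes, at 0.76 and 4.17 on the log2 scale, and against PTPRC-positive barcodes, at 4.24 and 4.19. In a setting added after seeing the data, the 6 INS-rich barcodes with a second hormone were left out. GCG was then at -2.11 against SLC4A4-rich barcodes and SST at 1.46. Against PTPRC-positive barcodes both were under 4-fold, at 1.37 and 1.48. Barcodes were left out of the INS-rich side only, so these ratios are not like for like. GCG summed to 355 CPM in SLC4A4-rich barcodes, but their median barcode was at 0. After thinning, a smaller share of them than of INS-rich barcodes had a GCG UMI. Of 627 values of the 33 called genes followed over 19 settings, 598 remained at least 4-fold the same way, 25 were under 4-fold the same way and the 4 of GCG and SST turned. With 44 barcodes in primary pancreas 1, the counting intervals of its shares are wide. The causes of the other changes were not tested.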
